A study of Mus musculus with 4 samples.

Results

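Zfp genes are the mouse genes named Zfp and a number. Most encode proteins with arrays of C2H2 zinc fingers, the small folds that read DNA sequence, and many carry a KRAB domain as well. Their peaks were studied in lists of RNA regions enriched by an antibody against N6-methyladenosine (m6A, a methylated adenosine found inside mRNAs). A peak belonged to the family when its deposited gene name was Zfp, a number and at most 1 letter. Zfp36 was left out, since it encodes an RNA-binding protein of another fold. This rule took 2175 of 46417 peaks, which name 317 of 9949 genes. Peaks of different lists whose exon blocks overlapped by at least 1 base were joined into regions, and the family held 637 of 15487 regions.

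The libraries came from mouse embryonic stem cells of the C57BL/6N strain. Wild type 1 is the library titled as control and wild type 2 the one titled WT, and both have the genotype wild type in the labels. Knockout 1 and knockout 2 are Mettl5-/-, that is, they lack Mettl5 on both alleles. Mettl5 encodes the methyltransferase that places m6A on 18S ribosomal RNA. No label says if libraries of like genotype are separate cultures or separate clones. Their spread can thus be technical. They also describe differentiation cultures and tie none of these libraries to them. The 4 lists held 562, 527, 545 and 541 Zfp peaks in the order wild type 1, wild type 2, knockout 1 and knockout 2, an order kept below. They named 286, 288, 280 and 296 Zfp genes. Whole lists held 10821 to 12699 peaks, and the read depth behind them is not given in the sources used here. A count of 2 against 2 lists cannot give an exact permutation p below 0.333, so no test between genotypes was run.

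Most m6A on mRNA is placed during transcription by the METTL3 and METTL14 complex at short motifs around the sequence GGAC. It is known to gather near stop codons and in long internal exons. KRAB zinc finger proteins bind transposable elements and imprinted regions and recruit the corepressor TRIM28, which brings in the histone methyltransferase SETDB1. The family grew by local gene duplication, so many members sit side by side, and in many of them a single last exon encodes all the fingers and the 3′ untranslated region (3′ UTR).

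Sequence was at hand where a peak lay in any of 32851 windows of 300 bases around a RefSeq gene start (GRCm38.p6). Of the 317 genes, 260 had a window by symbol. Hits on a single chromosome, named with the processing below, were left out of the stretches. On the other chromosomes, peaks of 16 Zfp genes overlapped their own or a neighbour's window, in 20 stretches. The letters GGACA, or the same 5 letters ending in C or T, stood on the transcript strand in 9 of these stretches, from 9 genes. Both strands of all windows were searched for comparison, and matches do not overlap one another. The stretches below were taken from the 9 with a match. They let a reader see what RNA lies under a strong peak, in 2 genes over the whole stretch and in 3 around the match. A match was a condition for being shown, so the shares of windows given below are no test of these stretches. Each is read 5′ to 3′ on the strand of the gene, with the match in capitals.
Zfp830, chr11:82764374-82764571, plus strand, listed as coding: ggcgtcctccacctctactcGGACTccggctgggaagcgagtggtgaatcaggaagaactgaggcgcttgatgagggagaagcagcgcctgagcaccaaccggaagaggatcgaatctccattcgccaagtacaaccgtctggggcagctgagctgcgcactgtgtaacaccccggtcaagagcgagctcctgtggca
Zfp212, chr6:47926597-47926786, plus strand, listed as coding: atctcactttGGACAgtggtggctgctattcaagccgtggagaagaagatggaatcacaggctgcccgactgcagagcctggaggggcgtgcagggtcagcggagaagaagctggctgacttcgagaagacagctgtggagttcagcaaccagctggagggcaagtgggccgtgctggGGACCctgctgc
Zfp281, chr1:136624915-136624944, plus strand, listed as coding: tggtccggtcgaGGACTtcccggcagacac
Zfp553, chr7:127233351-127233380, plus strand, 5′ UTR: cggggcggcaggtgccctcGGACTcaccgg
Zfp668, chr7:127875779-127875808, minus strand, 5′ UTR: cctgctcggcgcGGACCcgggggtcctaga
The Zfp830 stretch has 198 bases, begins where its peak begins, at the last base of an ATG, and holds 1 match, at bases 21 to 25. Of all windows, 45.3% hold a match within their first 198 bases on the sense strand, and 70.5% on either strand. The Zfp212 stretch has 190 bases and matches at 11 to 15 and 179 to 183, against 44% of windows over that length. The stretch of Zfp281 had 50 bases and that of Zfp668 had 115, of which 30 are printed around the match. A match stood in the first 50 bases of 14% of windows and in the first 115 of 29.9%. Windows run from 250 bases before the gene start to 50 after it. The shares over 198, 190, 115 and 50 bases thus count only bases before the start, and are not matched to the place of the stretches. Zfp553 had a full window of 300 bases under its peak, a length over which 60.2% of windows hold a match. A match is only these letters, counted against windows around gene starts and not against coding sequence, and it does not mark a methylated base.

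Peaks of Zfp genes lay in coding sequence more often than other peaks did, in each of the 4 libraries. Of the Zfp peaks, 49.5%, 53.7%, 49% and 52.1% were classed as coding, a mean of 51.6% ± 2.99 (SD, n = 2) in wild type and 50.6% ± 2.22 (SD, n = 2) in knockout. All other peaks were coding in 33% to 35.6%, so the shares of Zfp and other peaks did not overlap. The difference between genotypes, -1.02 percentage points, was smaller than the spread between libraries of 1 genotype. Without wild type 2 it was 1.09 and without knockout 1 it was 0.543, so its sign rested on single libraries. The 3′ UTR held 31.9% to 35.2% of Zfp peaks, against 38.5% to 38.8% of the others. Peaks classed only as exon made up 12.7% to 14.3% of Zfp peaks, against 21.3% to 23.1% of the others. The 5′ UTR held 1.47% to 2.49%, against 4.43% to 5.04%. A single Zfp peak was classed as a stop codon, that of Zfp335 in knockout 2, and none as a start codon. The coding share of 2 other groups of gene names was as high. Zbtb and Klhl genes, whose proteins share a BTB domain beside zinc fingers in the first and Kelch repeats in the second, had 47.5% to 53.4% of their peaks in coding sequence. Zscan and Zkscan genes, zinc finger genes with a SCAN domain, had 55.3% to 59%. The high coding share was not particular to Zfp names in these values.

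**Figure D1:**
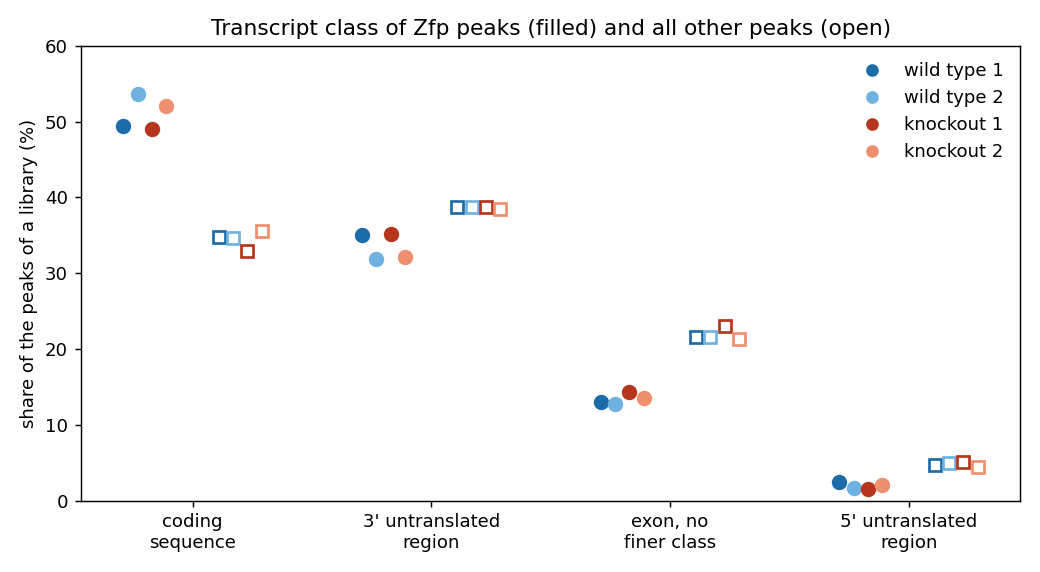
Share of peaks by transcript class (y axis, percent of the peaks of a library) for the 4 libraries, with Zfp peaks as filled circles and all other peaks as open squares. Zfp coding shares lie between 49% and 53.7% and those of other peaks between 33% and 35.6%, with no order by genotype.

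Within genes, coding peaks of the family lay more often in the later part than other coding peaks did, though not in the last 10%. Of the Zfp peaks, 97.9% could be placed inside their RefSeq gene, against 90.2% of other peaks. Places and distances were measured along the genome, so introns count in them and they are not distances along the RNA. Among coding peaks, 87.5% to 88.7% lay in the last 50% of the gene, against 68% to 68.6% of other coding peaks. The stretch of the gene from 80% to 90% held 31% of Zfp coding peaks and 16.6% of the others, and the last 10% held 23.5% and 25.6%. Over peaks of all classes, the last 10% of the gene held 35.3% to 37.1% of Zfp peaks, fewer than the 45.8% to 46.4% of other peaks. The first 10% of the gene held 1.64% against 9.04%. Coding peaks sat at a median of 2875 to 2994 bases from the gene end, nearer than the 4453 to 4539 bases of other coding peaks. Peaks in the 3′ UTR went the other way, at a median of 1334 to 1496 bases from the end against 1096 to 1138 bases. Coding peaks of the family lay in 1 exon block in 85% to 89.4%, against 79% to 81.1%.

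**Figure D2:**
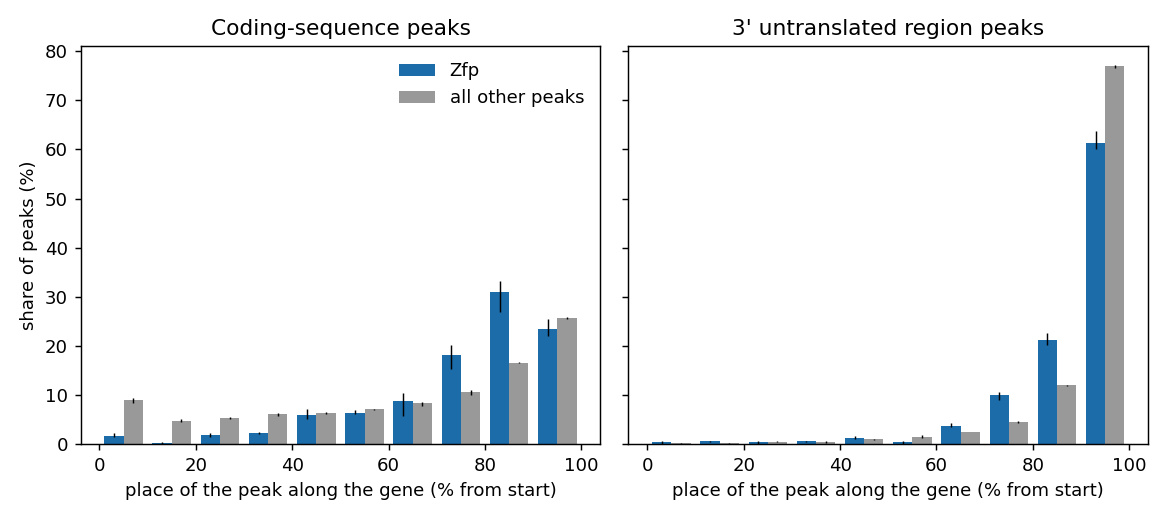
Place of the middle of a peak along its gene (x axis, percent of the gene from its start) and share of peaks (y axis, percent), for coding and 3′ UTR peaks of Zfp genes and all other genes. Places are measured along the genome, with introns counted. Bars pool the 4 libraries and whiskers run from the lowest to the highest library. The interval from 80% to 90% holds 31% of Zfp coding peaks and 16.6% of the others, and the last interval 23.5% and 25.6%.

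Zfp peaks were also long. Their median length in exons was 479, 508, 479 and 450 bases, against 330 to 360 bases for other peaks. Coding peaks of the family had medians of 569.5, 568, 539 and 480 bases against 415 to 421. Peaks of Zbtb and Klhl genes were as long, with medians of 480, 538, 509 and 481 bases overall and 541, 719, 616 and 570 bases in coding sequence. Those of Zscan and Zkscan genes were shorter than Zfp peaks, with medians of 405, 358, 360 and 435 bases overall. In coding sequence they had 404, 300, 357 and 271 bases. Peaks of 1000 bases or more made up 18.9% to 23.1% of Zfp peaks and 9.57% to 10.3% of the others. There were 470 of these long peaks, in 151 genes, and 64.7% of them were coding. The longest in each list had 3540, 3510, 5577 and 3480 bases. RNA was cut into fragments shorter than these peaks before the precipitation, so a long peak cannot be read as a single methylated site.

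The fold enrichment that the authors give each peak was higher for Zfp peaks than for the rest of the same list. Median folds were 45.5, 54.7, 38.4 and 41.8, against 18.4 to 25.9 for other peaks. Peaks of Zbtb and Klhl genes had higher medians than Zfp peaks in each list, at 52.4, 86.9, 51.3 and 59.8. Zscan and Zkscan peaks had lower medians than Zfp peaks in each list, at 32.5, 17, 20.8 and 39.6. These folds are the authors' own value for each peak and the background they refer to is not named, so they rank peaks within a list and do not give a level to compare between lists. The same holds for the strength percentile used below, the rank of a peak's deposited log10 p-value within its list, where 100 is the strongest and ties take their mean rank. The median percentile of Zfp peaks was 58.7, 61.2, 58.9 and 56.3, against 49.5 to 49.7 for all other peaks and 61.7, 66.3, 64 and 61 for Zbtb and Klhl peaks. For Zscan and Zkscan peaks it was 59.9, 30.8, 45.6 and 55.7. Taking each gene's strongest peak, the median percentile was 75.8, 75.1, 78.6 and 73.2 for Zfp genes and 58.4 to 59.3 for other genes. Among peaks classed as exon the family's median folds were 48.9 to 75.2, against 16 to 20. Folds of Zfp peaks ran from 2.36 to 1910.

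The 10 strongest members found in all 4 lists by mean percentile were led by Zfp830, a gene linked to pre-mRNA splicing. Its single region at chr11:82764374-82765758, whose start is printed above, had folds of 822, 757, 934 and 639. Zfp281, a transcription factor of pluripotent cells, had 1 coding region with folds of 561, 647, 495 and 339. Both genes stood at or above the 98th percentile in each list. Zfp292 had 5 regions, and its best peak had folds of 844, 444, 314 and 752. Zfp445, a KRAB protein that helps keep imprints, had a coding and a 3′ UTR region, and its best peak had folds of 551, 406, 550 and 341. Zfp809, which silences retroviral DNA in embryonic stem cells, had 1 region in the 3′ UTR with folds of 759, 952, 541 and 263. The others were Zfp518a (folds 211 to 428), Zfp146 (271 to 630), Zfp990 (293 to 800), Zfp646 (292 to 647) and Zfp532 (239 to 1010). At the other end of the members in all 4 lists, Zfp846 had folds of 7.95 to 16.8 and a mean percentile of 14.9.

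Of 29 members listed for a known role, 22 had a peak and 19 had one in all 4 lists. Of all protein-coding Zfp genes, 79.4% had a peak, and 79.8% of Zfp genes with a peak were in all 4 lists. Members of this list that act in stem cells and at transposable elements differed widely in strength. Zfp296, a factor of pluripotent cells, had 1 coding region with folds of 499, 133, 186 and 177. Zfp462, which acts in heterochromatin, had folds of 839, 877, 518 and 65, at percentiles of 89.6 to 92.8. Zfp207, which loads a spindle checkpoint protein on kinetochores, had folds of 125, 151, 240 and 42.7. Zfp932, a KRAB protein that represses endogenous retroviruses, had folds of 256, 346, 282 and 133, in coding sequence. Zfp568, a KRAB repressor of a placental Igf2 transcript, had 3′ UTR peaks only, with folds of 140, 94.3, 59 and 23.5. Zfp423, a transcription factor of fat and brain precursors, had best-peak folds of 73, 15.5, 9.01 and 23.5. Zfp521, its close relative, was among the weaker members with 12.3, 12.6, 18.4 and 14.9. For Zfp219 the best peak was coding in wild type, at folds of 215 and 108, and in the 3′ UTR in knockout, at 12 and 6.72. Its 3′ UTR region, which overlaps a peak of Arhgef40 on the other strand, was in all 4 lists. Its coding region was in both wild-type lists and in knockout 2, and was missing from knockout 1. For 7 genes of the list no peak was listed in any library: Zfp42, Zfp57, Zfp143, Zfp217, Zfp322a, Zfp410 and Zfp706. Zfp42, also called Rex1, is a marker of naive stem cells. RNA levels were not used here, so low RNA and a lack of enrichment cannot be told apart.

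Of 20 corepressor genes that act with KRAB zinc finger proteins (21 names, of which Tasor and Fam208a are the same gene), 10 (50%) had a peak, between the 37.6% of all protein-coding genes and the 79.4% of protein-coding Zfp genes. A peak in all 4 lists was found for 5 of these 10, against 57.1% of all genes with a peak. Trim28 had none. Setdb1 had exon peaks at folds of 237, 332, 360 and 130. Fam208a, a subunit of the HUSH silencing complex, had coding peaks at folds of 634, 210, 4.27 and 91.2, whose percentiles within their lists were 98.2, 99.1, 55.4 and 99.1. It ranked lower in knockout 1 than in the other lists. The remaining genes in all 4 lists were Cbx1, Chd4 and Dnmt3a. As a check of the cell type, 6 of 9 stem cell markers had a peak, each in all 4 lists, among them Pou5f1 and Sox2. Of the markers of other cells, 3 of 5 for primitive endoderm, 2 of 3 for trophoblast, 3 of 3 for neural cells, 1 of 3 for mesoderm and 0 of 4 for feeder fibroblasts had one. Of these, 2 for primitive endoderm, 1 for trophoblast, 2 for neural cells and 1 for mesoderm were in all 4 lists. The peaks thus do not tell these cell types apart. A peak shows RNA that was enriched, not how much of it a cell held.

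Most Zfp genes had a peak in every list. Of the 317 genes, 253 (79.8%) were in all 4 lists, against 57.1% of all genes with a peak and 56.4% of genes outside the family. Another 26 were in 3 lists, 22 in 2 and 16 in 1, so 5.05% were in a single list against 17.4% of other genes. Zbtb and Klhl genes were in all 4 lists in 74.6% and Zscan and Zkscan genes in 59.3%. The family also had a large part of its genes in the lists at all. Of 393 protein-coding RefSeq genes with such a name, 312 (79.4%) had a peak, against 37.6% of 21896 protein-coding genes. Zfp genes also had more peaks, at 1.83 to 1.97 peaks per gene and list against 1.47 to 1.51. Among genes with 1 region, 64% of 125 Zfp genes and 43.4% of other genes were in all 4 lists. Among genes with 4 or more, all 35 Zfp genes and 95.8% of other genes were. Zfp397, Zfp629 and Zfp738 had the most regions, 6 each, and 10 genes had 5. Among these 10, Zfp292 and Zfp704 had the most peaks, 17 each. Zfp704 carried all of its 17 peaks in the 3′ UTR and reached a fold of 1680 in knockout 1.

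Single regions recurred less often than genes. Of 637 Zfp regions, 349 (54.8%) were in all 4 lists, against 42.5% of all regions, and 123 (19.3%) were in 1 list. In 25 of the 637 another gene was named as well, and 345 were in all 4 lists when peaks under Zfp names alone were counted. Among peaks, 71.8% of coding, 78.7% of 3′ UTR, 76.3% of exon and 81% of 5′ UTR peaks lay in such a region, against 61.7%, 68.3%, 64.7% and 53% outside the family. Of the 349 regions in all 4 lists, 58 held Zfp peaks of 2 or more classes. Whether the classes differed between lists or within a list was not separated. Recurrence rose with strength up to a point. In steps of 20 strength percentiles, from the weakest to the strongest, 40.4%, 62.9%, 85.2%, 90.9% and 82.6% of Zfp peaks lay in a region of all 4 lists. Other peaks gave 27.6%, 49.9%, 77.1%, 85.1% and 83.3%, so the strongest step was below the next in both sets. On average 84.9% of the Zfp peaks of a list overlapped a peak of the other list of the same genotype, and 85.5% overlapped a peak of a list of the other genotype. By this measure lists of 1 genotype were no more alike than lists of different genotypes.

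Few Zfp genes followed the genotype labels. A peak in both wild-type lists and in neither knockout list was found for 4 genes (1.26%), where 1.56% of all genes had this pattern. The reverse was found for 7 genes (2.21%), against 2.27% of all genes. Regions gave the same picture, with 14 (2.2%) in wild type only against 2.02% of all regions, and 11 (1.73%) in knockout only against 2.51%. These shares are near those over all genes and regions and are no result about the family. The counts are small. With 1 library left out the pattern has 1 condition fewer, so these counts could only stay the same or rise. Leaving out 1 library and asking for the rest gave 6 to 17 genes for wild type, with 17 when knockout 2 was left out. The same gave 10 to 15 genes for knockout, with 15 when wild type 2 was left out.

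The 4 wild-type genes had very different peaks. Zfp24, a zinc finger gene with a SCAN domain, had 1 coding peak per wild-type list, with folds of 1290 and 547 at percentiles of 97.8 and 97.7, and no peak in either knockout list. Zfp260 had a coding region of 1440 bases at chr7:30104233-30105672, with folds of 249 and 1060 at percentiles of 93.3 and 92.3. Zfp119b followed at folds of 38.3 and 45.1, and Zfp354b at 10.1 and 9.62, near the bottom of both lists. The first pair stood among the strongest 10% of peaks in each wild-type list, and the last stood at percentiles of 14 and 9.25.

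Among the 7 knockout genes Zfp655 was the strongest. Its 3′ UTR region at chr5:145242921-145245237 had folds of 485 and 169 at percentiles of 95.1 and 93.1, and neither wild-type list held a peak there. Zfp72 had a coding region at chr13:74371539-74372047 with folds of 171 and 294. Zfp930 had folds of 110 and 62, in coding sequence, and Zfp874a had 30.4 and 52.3 for the stronger of its 2 exon regions. Zfp994 was listed at 16 and 8.22. Zfp125 and Zfp983 had a peak in both knockout lists, but at different places, so no region of theirs followed the labels. Zfp874a, Zfp119b and Zfp354b have close copies, and whether reads that fit several copies were assigned to another gene was not tested.

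Some genes missing from a list were strong. Of the 64 members missing from at least 1 list, 16 (25%) had a mean best percentile above 90 over the lists that held them, against 4.64% of 4202 such genes outside the family. Of genes in all 4 lists, 48 of 253 members and 815 of 5430 other genes were above 90. Taken from the strong genes, 16 of the 64 members above 90 (25%) missed a list, against 195 of 1010 other genes (19.3%). Zfp7, on chromosome 15, had folds of 1320, 273 and 309 in wild type 1, wild type 2 and knockout 2 and no peak in knockout 1. Zfp81 had 1130, 1640 and 486 in the same lists and was also missing from knockout 1. Zfp229 had 719, 313 and 189 there, and Zfp106, which encodes an RNA-binding protein of motor neurons, had 118, 84.6 and 61.2. Zfp638, which silences unintegrated retroviral DNA, had folds of 262 in wild type 1 and 118 in knockout 2 only. Zfp60 showed the same pattern with 808 and 982.

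These gaps fell mostly in knockout 1. Of the 16 strong members missing from a list, 13 were missing from knockout 1, 7 from wild type 2, 4 from wild type 1 and 3 from knockout 2. The 195 strong genes outside the family that missed a list were not split by library. The pattern thus cannot be called particular to the family. Over the whole family, 31, 29, 37 and 21 genes were missing from the lists, and 8, 3, 13 and 2 were missing from that list alone. Outside the family, genes missing from that list alone numbered 245, 311, 253 and 493. Knockout 1 had the longest list, with 12699 peaks. It was missing 11.7% of the Zfp genes and 16.3% of other genes, where knockout 2 was missing 6.62% and 27.5%. In 1 of the 16 cases, Zfp106, knockout 1 held a peak under another gene's name, Gm26899. It lay in a second region, chr2:120530498-120539655, where Zfp106 had a peak in 1 list. The Zfp106 region with the folds given above, chr2:120523534-120524545, had no peak in knockout 1. The best peaks of these 16 genes had a median of 1677 bases, and those of the 48 strong genes in all 4 lists had 1525 bases. What keeps a strong peak out of a list was not tested.

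**Figure D3:**
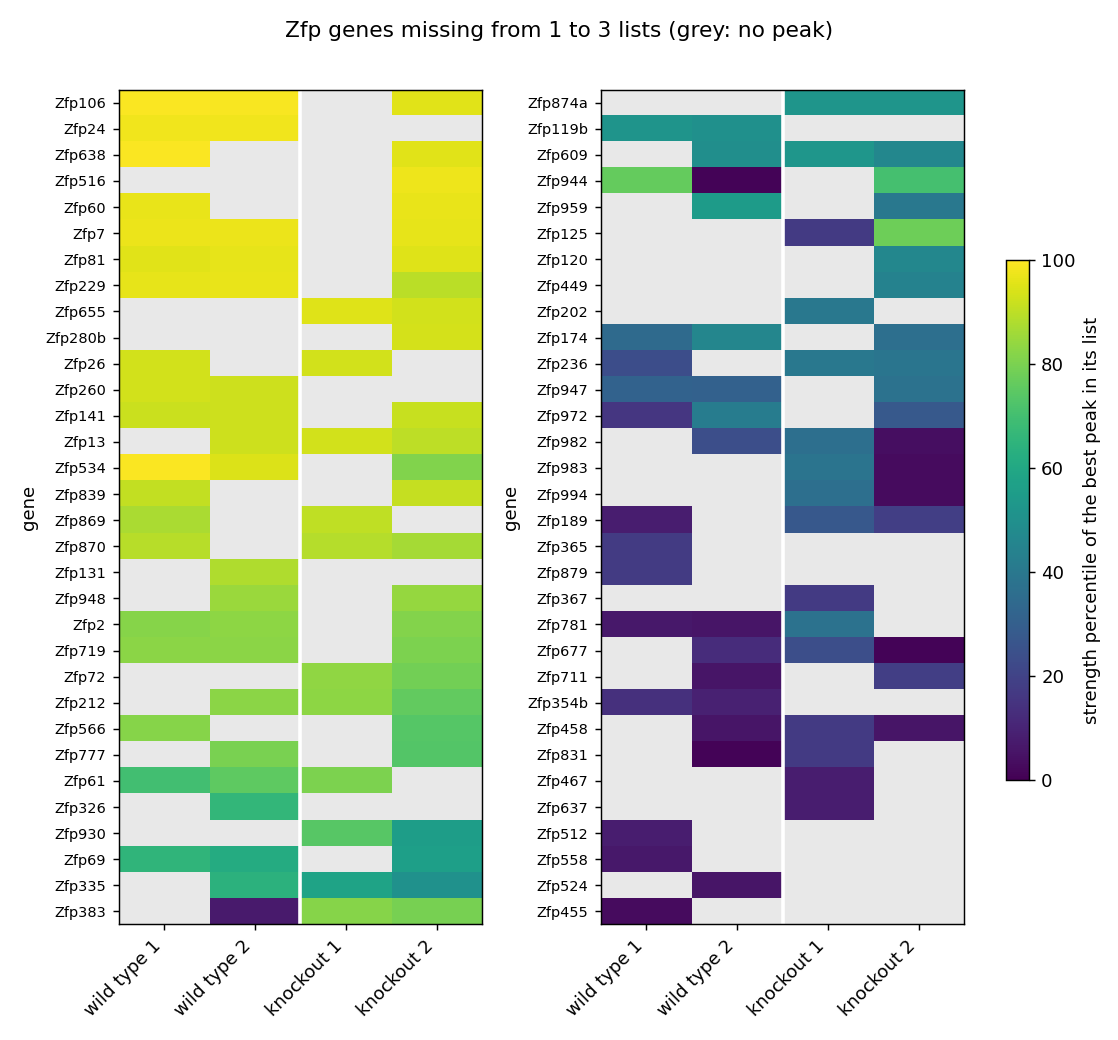
Zfp genes missing from 1 to 3 lists (64 genes, rows, ordered by mean percentile) in the 4 libraries (columns), coloured by the strength percentile of their best peak and grey where no peak was listed. Of the 16 genes above a mean of 90, 13 are grey in knockout 1, and Zfp24 and Zfp260 are grey in both knockout libraries.

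Members found in 1 list ranged from near the bottom to the top. The strongest were Zfp516, with a coding peak of fold 548 in knockout 2, and Zfp280b, with a 3′ UTR peak of fold 330 in the same library. Zfp131 followed with a fold of 358 in wild type 2 and Zfp326 with 3.72 there. The median best percentile of the 16 single-list members was 17.5, near the 16.8 of other genes in 1 list. For members in 2 lists it was 77.2, against 23 for other genes. Members in all 4 lists had 76.3, against 65.9.

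Zfp genes with a peak stood in groups on the chromosomes. Neighbouring members within 200 kb were joined, and runs of 4 or more genes were taken as a cluster. This gave 17 clusters on 9 chromosomes with 137 of the 317 genes (43.2%), and 8 of the clusters, with 56 genes, were on chromosome 7. Chromosome 7 held 25.6% of Zfp genes with a peak against 8.47% of all genes with a peak. Chromosome 17 held 12.9% against 4.82%, and chromosome 13 held 9.46% against 4.01%. How all Zfp genes, with or without a peak, divide over chromosomes was not counted. These shares thus cannot be told apart from the places of the genes themselves. RefSeq places 144 Zfp genes inside the cluster spans, of which 8 (5.56%) had no peak: Zfp978, Zfp979, Zfp418, Zfp112, Zfp382, Zfp266, Zfp457 and Zfp459. Over the genome 85 of 398 RefSeq Zfp genes had none, and clusters, being runs of genes with peaks, were bound to hold fewer of them.

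The largest cluster ran over 787 kb at chr13:67039938-67826912, from Zfp712 to Zfp273, with 21 genes. Of these, 18 were in all 4 lists, and 17 lay on the minus strand. Its peaks were 47.8% 3′ UTR and 31.5% coding, and its strongest member was Zfp708, with folds of 309, 394, 264 and 170. The cluster at chr17:21396974-22456330, from Zfp677 to Zfp946, held 18 genes over 1059 kb. Here 11 genes (61.1%) were in all 4 lists and 63.8% of peaks were coding. It held Zfp983 and Zfp994 of the knockout genes and Zfp229, its strongest member.

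On chromosome 7 the cluster at chr7:29775367-30163225 held 14 genes from Zfp84 to Zfp146, of which 11 were in all 4 lists. Zfp146 was its strongest member, and Zfp260 and Zfp568 lie in it. Its first gene, Zfp84, had a coding peak with folds of 594 and 1350 in the wild-type lists, and none in either knockout list. Its 3′ UTR peaks were listed in all 4 libraries, so the gene counts as recurrent. The cluster from Zfp553 to Zfp629 had all of its 8 genes in all 4 lists, and Zfp553 had best-peak folds of 1310, 154, 454 and 289. Zfp180 to Zfp61 had 7 of 8 genes in all 4 lists and 69.7% coding peaks, led by Zfp111 at folds of 284 to 1190. Zfp607b to Zfp850, with 8 genes and led by Zfp60, had 27.3% coding and 50% 3′ UTR peaks. The clusters from Zfp444 to Zfp28, Zfp264 to Zfp772 and Zfp110 to Zfp446 also had all members in all 4 lists. In the group from Zfp628 to Zfp784, Zfp784 and Zfp865 lie on opposite strands and share 2 regions, so those peaks cannot be given to either gene.

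Smaller groups elsewhere differed in class and recurrence. The cluster from Zfp871 to Zfp763 on chromosome 17 had 7 genes and 40.9% exon peaks. Its median fold was 162, and Zfp871 had 1210, 633, 890 and 1910. Zfp354c to Zfp354a on chromosome 11 had 3 of 6 genes in all 4 lists and 78.8% coding peaks, with Zfp354c at 1570, 822, 960 and 1190 and a cluster median of 12.7. On chromosome 4, Zfp989 to Zfp933 had 74.4% coding peaks over 8 genes, led by Zfp988 at folds of 105 to 467. Chromosome 6 held Zfp786 to Zfp746, where Zfp282 reached folds of 406 to 1560. The clusters on chromosomes 2, 8 and 9 had 4, 5 and 4 genes and were led by Zfp937, Zfp868 and Zfp26.

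**Figure D4:**
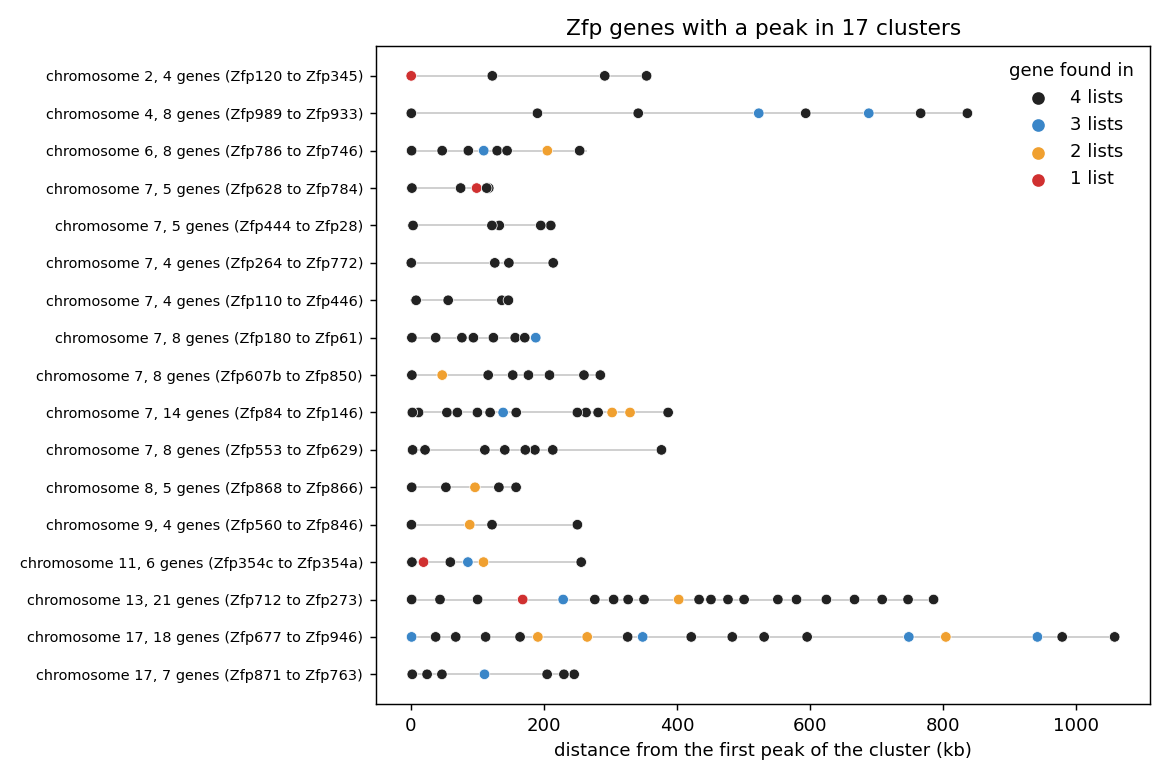
Zfp genes with a peak in the 17 clusters (rows, with chromosome and first and last gene), placed by distance from the first peak of the cluster (x axis, kb) and coloured by the number of lists that held a peak of the gene. In the row of 21 genes on chromosome 13, 18 are in 4 lists, and in the row of 18 genes on chromosome 17, 11 are.

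Zfp genes inside and outside the clusters were in all 4 lists in similar shares. Those outside include runs of fewer than 4 neighbours. Of the 137 genes in clusters 110 (80.3%) were in all 4 lists, and of the 180 others 143 (79.4%). Peaks in clusters were coding in 46.3% to 51.1%, by library, and outside in 49.5% to 55.7%. Peaks classed only as exon were 15.5% to 16.7% in clusters and 10.4% to 12.4% outside, 2 ranges that do not overlap. The median strength percentile was 51.4 to 56.7 in clusters and 60.8 to 64.3 outside. Near-identical copies lie in clusters, and how the authors placed reads that fit several of them is not given in the sources used here.

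Members that share a number and differ by a letter formed 8 families of 17 genes. Of these, 13 were in all 4 lists, where 79.8% of all Zfp genes with a peak were. Zfp729a and Zfp729b, neighbours on chromosome 13, had folds of 67.6 to 765 and 248 to 443. Zfp955a and Zfp955b on chromosome 17 had 374 to 629 and 131 to 383. The pairs of Zfp119, Zfp874 and Zfp354 were uneven, with Zfp119a, Zfp874b, Zfp354a and Zfp354c in all 4 lists and Zfp119b, Zfp874a and Zfp354b in the lists of 1 genotype only. Zfp280d was in all 4 lists with folds of 167 to 511, and Zfp280b in 1.

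The share of the family among all peaks was 4.81%, 4.7%, 4.29% and 5%. The means were 4.75% ± 0.0708 (SD, n = 2) in wild type and 4.65% ± 0.501 (SD, n = 2) in knockout, a difference of -0.109 percentage points. Both wild-type values lay between the knockout values. Without knockout 1 the difference was 0.245, so its sign too rested on that library.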

How the data were processed

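The files are 1 peak list per library, made by the authors from m6A-enriched RNA. HISAT2, HOMER and mm10 appear in the submitters' processing notes, with no role stated. Which program found the peaks, with what settings, and how reads with several matches were placed, is not given in the sources used here. Per the file headers, each deposited peak has coordinates, exon blocks, a gene, a class, a p-value, log10 scores of the p-value and its adjusted form, and a fold enrichment, a ratio whose background is unnamed. Peaks on sequences outside the main chromosomes were left out (3 to 6 per list).

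Members were taken by gene name, and regions, recurrence, clusters and classes were counted with Python 3.11.15, pandas 2.3.3 and numpy 2.4.6. RefSeq gene starts and ends gave places along genes. In the search of sequence, hits on chromosome 18, where 10 Zfp genes had a peak, were left out. The comparison windows were not restricted in this way. 5 members are not protein-coding in the lists, 4 (Zfp125, Zfp264, Zfp986, Zfp989) were not found in RefSeq, and Zfp935 has 2 gene identifiers. Named genes are members with known roles, the genotype-specific ones, the 10 strongest, the 5 with most regions (ties at 5 regions, which the rule left open, taken by number of peaks after the values were seen), the first, last and strongest of each cluster, the 4 strongest found in 1 list, and corepressors. Genes such as Zfp7, Zfp81, Zfp84, Zfp219, the suffix pairs and those of the printed sequences were singled out after their values were seen. Members and lists were chosen with earlier results of these data known. The region join was run on simulated lists for the genotype-only regions, and recovered 100% of 200 planted regions in each direction. These lists were copies of 1 real list, without peaks that shared a region and with each peak moved by a few bases. High recovery was thus built in. The run checks the code and not how real peaks split, merge or differ in length between lists. Alternatives were the overlap, the strand, the threshold, list length, the names counted, the cluster distance and each library left out.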

Additional observations from a re-analysis of the deposited data

How the results depend on the processing

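Of 32 values recomputed without leaving out a library, 31 stayed within 1.5 times the main count or within the spread between libraries. The exception was the number of Zfp regions in all 4 lists, which was 222 in place of 349 when only the stronger 50% of each list was kept, fewer peaks by construction. It was 320 with a reciprocal overlap of 50% and 347 with the strand required. Clusters numbered 12 to 20 under the alternatives. The margin is wide: 188 genes in all 4 lists with the stronger 50% kept, against 253, counted as unchanged. Asking for an adjusted p-value under 0.05 removed 0, 0, 8 and 1 Zfp peaks, so values at that setting could hardly move. Leaving out each library in turn gave differences between genotypes of -0.463 to 0.245 percentage points for the share of Zfp peaks and -3.14 to 1.09 for the coding share. It gave 255 to 266 genes and 371 to 386 regions in every remaining list, and 16 to 17 clusters. Genes in wild type only numbered 6 to 17, and those in knockout only 10 to 15. These gene counts could not fall below the main ones, since leaving out a list drops a condition. No paired analysis was possible because the wild-type labels carry no replicate numbers and no value comes from a fitted model. Keeping only members whose protein has 3 or more C2H2 fingers was not run, since no protein sequences were at hand. Read depth, input RNA and expression were not used, so a missing peak cannot be told apart from low RNA or low depth.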
